A study of Mus musculus with 9 samples.

Results

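The 6 genes described here encode the TFEB family of transcription factors (Tfeb, Tfe3 and Mitf) and the folliculin complex (Flcn, Fnip1 and Fnip2). They were taken by symbol from the deposited table of bone marrow neutrophils, and all 6 were among its 7197 listed genes. The libraries came from mice aged 2 months of 2 genotypes, 5 Rragc+/+ and 4 RragcS74N/+. RragcS74N/+ mice carried 1 Rragc allele edited in the germ line, so the change was present in every cell type, and the labels give no treatment for either genotype. Cells were sorted as CD45+ CD11b+ Ly6G+, and their RNA was sequenced from the 3′ end with oligo-dT priming. No source used here gives the sex of each library or a sequencing batch, and p-values measure the spread between these libraries.

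RagC, the product of Rragc, pairs with RagA or RagB on the lysosome, where the Rag GTPases recruit the kinase complex mTORC1 when amino acids are sufficient. Folliculin, with the folliculin-interacting proteins, is the GTPase-activating protein that brings RagC into its GDP-bound, active form. RagC in that form presents the TFEB family to mTORC1, which phosphorylates these factors and holds them in the cytoplasm. Unphosphorylated factors enter the nucleus and bind E-boxes in promoters of lysosomal and autophagy genes. Control of this pathway thus lies largely in the location of the proteins, which transcript counts do not measure.

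The E-box bound by the family, CACGTG, was searched on both strands of promoter sequences, from 250 bases before to 50 bases after each start, from RefSeq on GRCm38.p6. The sequences below are 30-base windows on the strand of the gene, with the E-box in capitals, and show 1 member, the edited gene and a pair of lysosomal genes described later.

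Fnip1: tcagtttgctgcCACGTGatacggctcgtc

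Rragc: ggtgattccgggCACGTGatagtaccactt

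Ctsd: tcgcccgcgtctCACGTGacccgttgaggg

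Atp6v0d1: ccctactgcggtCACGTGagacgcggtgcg

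The windows lie at chr11:54438092-54438121 (plus strand) for Fnip1, chr4:123917309-123917338 (plus) for Rragc, chr7:142387908-142387937 (minus) for Ctsd and chr8:105566050-105566079 (minus) for Atp6v0d1. The E-box began at base -75 from the start of Fnip1 and at base -98 from the start of Ctsd. Fnip1 was the 1 member of 6 with the E-box in a promoter, and 0 of the 3 Tfeb, 2 Tfe3, 3 Mitf, 1 Flcn and 1 Fnip2 promoters held it. Of 32851 promoters in the reference, 7.15% held CACGTG, and 0.974% held the longer form TCACGTGA, in which CACGTG is contained. The longer form occurred in no promoter of the 6 genes and is present in the Ctsd and Atp6v0d1 windows. A match describes letters in these windows, not binding.

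Reads recovered over the listed genes numbered 1214295 to 1973957 per library. All 12 sorting and mature neutrophil markers, including Ptprc, Itgam and Ly6g, were listed, with summed levels of 125871 to 182947 normalized counts in Rragc+/+ and 119101 to 198702 in RragcS74N/+. The largest parts of these sums were S100a9, with means of 60898 in Rragc+/+ and 67964 in RragcS74N/+, and S100a8, with 50700 and 52510. The sums thus describe mainly S100a8 and S100a9, and the maturity of the cells was not tested. Of 5 primary granule markers of immature cells, 0 were listed. Rragc+/+ replicate 2 stood apart, whose Spearman correlation with the other libraries averaged 0.901, the lowest of the 9. For Rragc itself the Rragc+/+ libraries gave 71.0 ± 10.3 normalized counts (SD, n = 5) and the RragcS74N/+ libraries 65.8 ± 9.52 (SD, n = 4), and a gene-level count does not tell its alleles apart.

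Whether the genotypes differed in transcripts of the family was asked first. Levels are given as normalized counts, which are reads divided by the size factor of the library. Tfeb, a master regulator of lysosome formation, measured 85.6, 144.9, 111.5, 72.3 and 55.1 normalized counts in Rragc+/+ replicates 1 to 5, and 65.6, 54.9, 77.6 and 44.9 in RragcS74N/+ replicates 1 to 4. Rragc+/+ replicates 1, 2 and 3 lay above every RragcS74N/+ library, and RragcS74N/+ replicates 2 and 4 lay below every Rragc+/+ library. The genotypes overlapped from 55.1 to 77.6. The means were 93.9 ± 35.2 (SD, n = 5) and 60.8 ± 14.0 (SD, n = 4), a difference of -0.57 on the log2(value + 1) scale (SE 0.27, 95% interval -1.14 to 0.0015). This did not pass the test (limma, p = 0.0505, adjusted p = 0.713), and a two-sided exact permutation test of the genotype labels gave p = 0.119, where the smallest possible is 0.00794.

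Tfe3, which shares DNA targets with Tfeb and is controlled by the same Rag GTPases, measured 109.3, 248.9, 180.0, 113.3 and 85.2 normalized counts in Rragc+/+ and 114.0, 98.6, 110.0 and 70.0 in RragcS74N/+. Rragc+/+ replicates 2 and 3 were high for this gene too, and the remaining Rragc+/+ libraries lay among the RragcS74N/+ values. The means were 147.3 ± 66.8 (SD, n = 5) and 98.2 ± 19.9 (SD, n = 4), and the log2 difference was -0.50 (SE 0.28, 95% interval -1.10 to 0.11, limma adjusted p = 0.713, exact permutation p = 0.230). Without Rragc+/+ replicate 2 this difference was -0.28. Mitf, best known from pigment cells, osteoclasts and mast cells, was near the lower end of the genes tested, at the 18.9th percentile of mean level. Its values were 22.4, 14.0, 11.2, 14.5 and 15.0 normalized counts in Rragc+/+ and 17.9, 15.2, 14.3 and 15.7 in RragcS74N/+, from 12 to 34 reads per library. The log2 difference for Mitf was 0.06 (SE 0.25, 95% interval -0.48 to 0.60, limma adjusted p = 0.949), so these libraries do not exclude changes inside that interval. This difference was 0.20 without Rragc+/+ replicate 1, -0.038 without Rragc+/+ replicate 3 and -0.065 with the trend on GC content (described later) removed, so no direction is given for Mitf.

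The folliculin complex was examined in the same way. Flcn, the catalytic subunit, measured 37.5, 14.0, 23.4, 24.1 and 24.1 normalized counts in Rragc+/+ and 20.6, 21.3, 20.3 and 31.4 in RragcS74N/+. Both the highest and the lowest library were Rragc+/+, and the difference between the means was -0.03 on the log2 scale (SE 0.27, 95% interval -0.61 to 0.55, limma adjusted p = 0.979). Removal of any 1 of 4 libraries turned its sign, so no direction is given for Flcn. Fnip1, which is required for B cell development, measured 162.0, 113.3, 153.7, 133.4 and 149.4 in Rragc+/+ and 204.2, 123.0, 143.9 and 142.1 in RragcS74N/+. RragcS74N/+ replicate 1 was the highest, and the other 3 RragcS74N/+ libraries lay within the Rragc+/+ range. Its log2 difference was 0.09 (SE 0.19, 95% interval -0.31 to 0.49, limma adjusted p = 0.883), the narrowest interval of the 6 genes, and the sign turned without RragcS74N/+ replicate 1, at -0.055. Fnip2, the paralog of Fnip1, measured 29.0, 17.5, 22.5, 26.5 and 19.0 in Rragc+/+ and 29.8, 11.2, 21.1 and 21.9 in RragcS74N/+. The log2 difference was -0.17 (SE 0.28, 95% interval -0.78 to 0.43, limma adjusted p = 0.860), and RragcS74N/+ replicate 2, with 11 reads, decided its sign, since the difference was 0.088 without it.

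**Figure D1:**
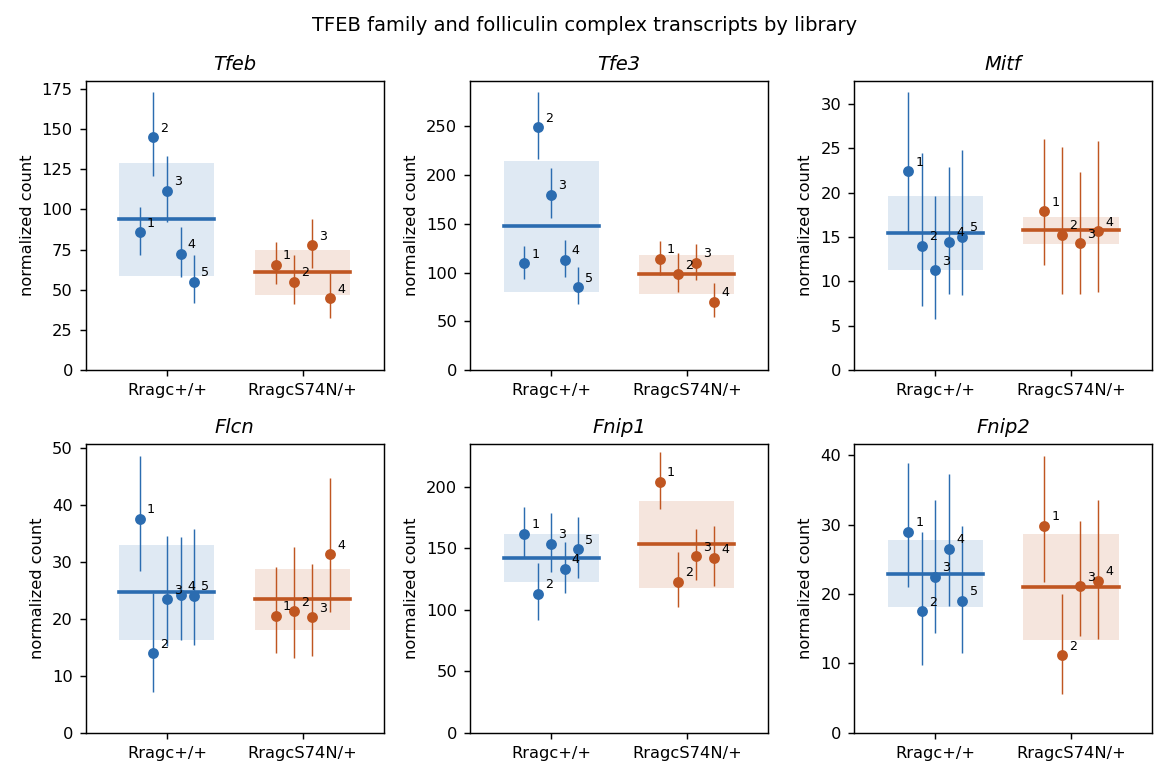
Normalized counts (vertical axes, linear from 0) of the 6 genes in each Rragc+/+ (blue) and RragcS74N/+ (orange) library, with replicate numbers. Thin bars are 95% Poisson intervals from the reads, thick lines are means and shaded bands are ± 1 SD; the genotypes overlap for every gene, and Tfeb and Tfe3 are highest in Rragc+/+ replicates 2 and 3.

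Over the 6 genes, 0 had an adjusted p-value under 0.05, as did 0% of the 6673 genes tested. By unadjusted p-value, 0 of 6 were under 0.05, beside 5.81% of all genes (388), of which 3.81% were lower and 2.01% higher in RragcS74N/+. The genotypes were separate for 0 of 6, beside 1.69% of all genes. The median difference was -0.10 for the 6 genes and 0.02 for all genes tested, and 396 of those genes had a smaller p-value than Tfeb. edgeR and DESeq2 on the recovered reads gave 0 adjusted calls over all genes and 460 and 447 genes under an unadjusted 0.05, Tfeb among them in both. As ratios of RragcS74N/+ to Rragc+/+ on the log2(value + 1) scale, the 95% intervals ran from 0.454 to 1.00 for Tfeb, 0.465 to 1.08 for Tfe3 and 0.807 to 1.41 for Fnip1. Those for Mitf, Flcn and Fnip2 spanned 0.716 to 1.52, 0.653 to 1.47 and 0.584 to 1.35.

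**Figure D2:**
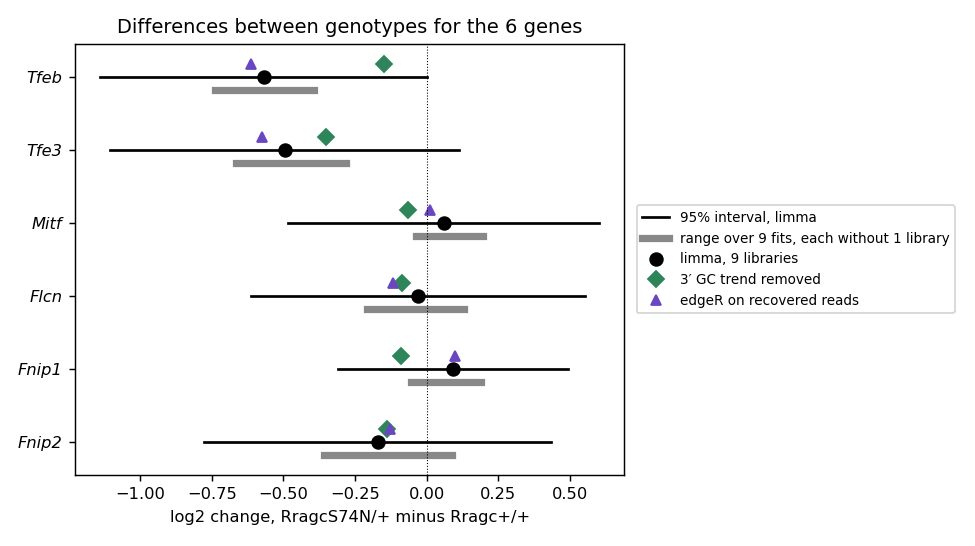
Log2 change (horizontal axis, RragcS74N/+ minus Rragc+/+) of the 6 genes. Black points and lines are limma estimates with 95% intervals, grey bars the range over 9 fits that each left out 1 library, green diamonds the estimates after removal of the trend on 3′ GC content and purple triangles edgeR; every interval includes 0, and Tfeb moves from -0.57 to -0.15 when the trend is removed.

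The proportions of the transcripts within the family were compared because a ratio of reads inside a library does not depend on its scaling. Reads come from the 3′ end and were not divided by transcript length, so these proportions are of reads and capture may differ between genes. Tfeb made up 38.9% ± 2.54 (SD, n = 9) of the reads of Tfeb and Tfe3, and the 9 libraries ranged from 35.8% to 43.9%. By genotype, Rragc+/+ libraries had a share of 39.4% ± 2.68 (SD, n = 5) and RragcS74N/+ libraries one of 38.2% ± 2.55 (SD, n = 4), a difference smaller than the spread between replicates. This narrow range contrasts with the levels themselves, since the highest library exceeded the lowest 3.22-fold for Tfeb and 3.55-fold for Tfe3. Tfe3 contributed 56.3% of the reads of the 3 factors and Mitf 7.95%, from 3.44% in Rragc+/+ replicate 2 to 12.0%. Fnip1 supplied 87.1% ± 2.31 (SD, n = 9) of the reads of Fnip1 and Fnip2.

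Variation among libraries differed between the genes. The coefficient of variation within genotypes was 35.5% for Tfeb and 41.5% for Tfe3, where Poisson counting of the recovered reads would give 10.5% and 8.39%. If reads were not collapsed by molecular identifier, the true counting error is larger than these values. Mitf varied by 21.1%, with a Poisson value of 23.2%. For Flcn, Fnip1 and Fnip2 the values were 30.0%, 18.5% and 28.1%, with Poisson values of 18.7%, 7.55% and 19.4%. Among all genes tested, the residual SD of Tfe3 was at the 80.1st percentile and that of Fnip1 at the 21.9th.

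Relations among the genes were then examined over the 9 libraries in 15 pairs. Tfeb and Tfe3 had the highest Pearson correlation of log2(value + 1), with r = 0.960 (exact permutation p = 0.000132, adjusted p = 0.00198). The Spearman correlation was 0.817 (exact permutation p = 0.0108, adjusted p = 0.162), which did not pass after adjustment. Without the 2 libraries farthest from the median of Tfeb, Rragc+/+ replicate 2 and RragcS74N/+ replicate 4, r was 0.886, and it was 0.972 within Rragc+/+ and 0.889 within RragcS74N/+. Fnip1 and Fnip2 correlated less (r = 0.701, exact permutation p = 0.0428, adjusted p = 0.315; rho = 0.750, exact permutation p = 0.0255, adjusted p = 0.191), and r was 0.704 without the 2 libraries farthest from the median. None of the other 13 pairs had an adjusted p-value under 0.05.

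The similarity of Tfeb and Tfe3 was shared by many other genes. Among 3474 genes whose mean reached 50, Tfe3 was only the 8th most like Tfeb and Tfeb the 37th most like Tfe3. Correlations above 0.9 were found with 115 genes (3.31%) for Tfeb and 197 (5.67%) for Tfe3, beside 1 for Mitf, 3 for Flcn, 4 for Fnip1 and 2 for Fnip2. Mitf, Flcn and Fnip2 had 11 to 57 reads per library, and counting error limits the correlations such genes can reach. Rragc+/+ replicate 2 was the highest library for both Tfeb and Tfe3, and its part in these counts was not tested. The 3 genes most like Tfeb were Tsen34 (r = 0.983), a subunit of the tRNA splicing endonuclease, Erp29 (0.969), a chaperone of the endoplasmic reticulum, and Trir (0.968). Those most like Tfe3 were Cd82 (0.993), a tetraspanin, Sap30l (0.986), of the Sin3 histone deacetylase complex, and Pi16 (0.985). For Mitf they were Cybc1 (0.903), a chaperone of the phagocyte oxidase, Klhl2 (0.888) and Peli1 (0.842), a ubiquitin ligase of innate signalling. Flcn was most like Vdac1 (0.986), the mitochondrial outer membrane channel, Tpm4 (0.944), a tropomyosin, and C5ar2 (0.934), a complement receptor. Fnip1 was most like Mindy3 (0.960), Gnaq (0.946), a G protein subunit, and Nfkb1 (0.932), and Fnip2 most like Snx4 (0.909), a sorting nexin, Vps36 (0.903), of the ESCRT-II complex, and Abhd13 (0.846). These 18 values are descriptions over 9 libraries that share depth and base composition.

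Base composition moved with Tfeb and Tfe3. The 115 genes most like Tfeb had a median GC content of 51.6% over the last 500 bases of the transcript, beside 42.4% for the genes compared. Tfeb itself had 60.8%, at the 99.3rd percentile of all genes, Tfe3 50.4%, Flcn 41.6%, Fnip2 45.8%, Mitf 36.6% and Fnip1 30.0%, at the 3.49th percentile. For each library, the slope of the deviation of genes from their mean on GC content was taken as a measure of this composition. Slopes were from -0.11 to 0.31 log2 units per 10 percentage points in Rragc+/+ and from -0.21 to -0.0086 in RragcS74N/+, highest in Rragc+/+ replicate 2. The genotypes overlapped (difference of means -0.19, exact permutation test, two-sided, p = 0.0556).

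Tfeb correlated with this slope over the 9 libraries (r = 0.864, exact permutation p = 0.00276, adjusted p = 0.0166 over 6 relations; rho = 0.833, exact permutation p = 0.00827, adjusted p = 0.0496), and r was 0.896 without the 2 libraries farthest in slope and 0.732 without Rragc+/+ replicate 2 alone. Within Rragc+/+ r was 0.919 and within RragcS74N/+ 0.312. For Tfe3, r was 0.828 (exact permutation p = 0.00612, adjusted p = 0.0184) with 0.881 without the 2 farthest libraries and 0.617 without Rragc+/+ replicate 2 alone, but rho was 0.633 (exact permutation p = 0.0760, adjusted p = 0.152), and r within RragcS74N/+ was 0.048. The other 4 genes gave adjusted p-values of at least 0.129 in the same exact permutation test of r. When each library's trend on GC content was removed, the genotype difference was -0.15 for Tfeb (limma adjusted p = 0.90) and -0.35 for Tfe3 (limma adjusted p = 0.873). The correlation of Tfeb with Tfe3 was 0.721 on these values, that of Fnip1 with Fnip2 was 0.875, and that of Tfeb with Fnip1 was 0.769 where it had been -0.23. Every RragcS74N/+ slope was below 0, and in Rragc+/+ only that of replicate 5 was. Removal of the trend therefore also takes out any genotype difference aligned with the slope, and these libraries cannot tell the 2 apart. The part of base composition in the genotype differences beyond this comparison was not tested.

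Markers of the sorted cells and of other cells were set beside the same genes. The summed sorting and mature neutrophil markers correlated with Tfeb at r = -0.36 (exact permutation p = 0.340, adjusted p = 0.543 over 8 relations). Within RragcS74N/+ this r was -0.83, and with the GC trend removed it was -0.77 (exact permutation p = 0.0261, not adjusted). With Tfe3, r was -0.26 (exact permutation p = 0.511, adjusted p = 0.682), and -0.32 with the GC trend removed. Csf1r, Mpeg1, Cd68 and Adgre1, the 4 listed of 8 monocyte and macrophage markers, summed to 401.7, 710.4, 469.6, 401.9 and 314.8 normalized counts in Rragc+/+ replicates 1 to 5 and to 348.8, 285.7, 313.3 and 270.7 in RragcS74N/+ replicates 1 to 4. By gene, 4 of 4 had a log2 difference below 0, beside 46.6% of all genes, and the median was -0.49, beside 0.02. At an unadjusted limma p-value under 0.05, 1 of the 4 was lower in RragcS74N/+, beside 3.81% of all genes. That gene was Mpeg1, a pore-forming protein of phagocytes (difference -0.44, SE 0.19, adjusted p = 0.713). The sum was highest in Rragc+/+ replicate 2 and lowest in RragcS74N/+ replicate 4, the same libraries as for Tfeb. It correlated with Tfeb at r = 0.938 (exact permutation p = 0.000198, adjusted p = 0.00138 over 8 relations; rho = 0.867, exact permutation p = 0.00451, adjusted p = 0.0243) and with Tfe3 at r = 0.938 (exact permutation p = 0.000344, adjusted p = 0.00138; rho = 0.850, exact permutation p = 0.00607, adjusted p = 0.0243). Without the 2 libraries farthest from the median of the sum, r was 0.812 and 0.729, and with the GC trend removed it was 0.732 and 0.896. Within Rragc+/+ and RragcS74N/+ r with Tfeb was 0.955 and 0.754. Ccr2, F13a1, Cx3cr1 and Ms4a6c, the other 4 markers of that list, were absent from the listed genes, so the sum does not cover them. Neutrophils are themselves known to transcribe some of the listed ones, and the gate on Ly6G would remove most monocytes. In bulk RNA, fewer cells of a type and less RNA per cell cannot be told apart, and the part of these cells in the values of Tfeb and Tfe3 was not tested.

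Erythroid markers, of which 6 of 7 were listed, summed to 1090 to 5585 normalized counts in Rragc+/+ and 378 to 2147 in RragcS74N/+. At an unadjusted limma p-value under 0.05, 5 of 6 were lower, beside 3.81% of all genes (adjusted p = 0.713 for each). These were Alas2 and the globin genes Hba-a1, Hba-a2, Hbb-bs and Hbb-bt, which need not vary separately. Car2 was higher, at a log2 difference of 0.58 (SE 0.76). The erythroid sum correlated with Tfeb at r = 0.194 (exact permutation p = 0.617, adjusted p = 0.705). Mast cell, basophil and eosinophil markers, 5 of 11 listed, summed to 999 to 1863 in Rragc+/+ and 1036 to 1244 in RragcS74N/+. Most of this sum was Hdc, the histidine decarboxylase that makes histamine, at 1315 ± 387 (SD, n = 5) and 1020 ± 117 (SD, n = 4). The sum thus describes mainly 1 gene, and which cells transcribed Hdc was not tested. Cpa3, Fcer1a, Ms4a2, Gata2, Mcpt8 and Prss34 of the same list were absent from the listed genes. The eosinophil granule genes lay the other way from Hdc, with Prg2 at 30.4 ± 28.2 (SD, n = 5) and 88.4 ± 71.2 (SD, n = 4), a log2 difference of 1.38 (SE 0.61), and Epx at a difference of 1.10 (SE 0.78). Siglecf, an eosinophil surface marker of this list, did not rise with them, at 28.6 ± 5.37 (SD, n = 5) and 25.9 ± 5.34 (SD, n = 4), a difference of -0.14 (SE 0.23). Of the 4 tested genes of this list, 1, Prg2, was higher and 0 were lower at an unadjusted limma p-value under 0.05 (adjusted p = 0.713). Over all genes, 2.01% were higher and 3.81% lower at that limit. The median difference of the list was 0.48, beside 0.02 for all genes. The sum correlated with Tfeb at r = 0.603 (exact permutation p = 0.0828, adjusted p = 0.212), which was -0.052 without the 2 libraries farthest from the median and -0.67 within RragcS74N/+, so it rests on those libraries. Cd3d, the 1 listed of 8 lymphoid markers, ranged from 14.5 to 28.9 in Rragc+/+ and 14.6 to 18.8 in RragcS74N/+.

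**Figure D3:**
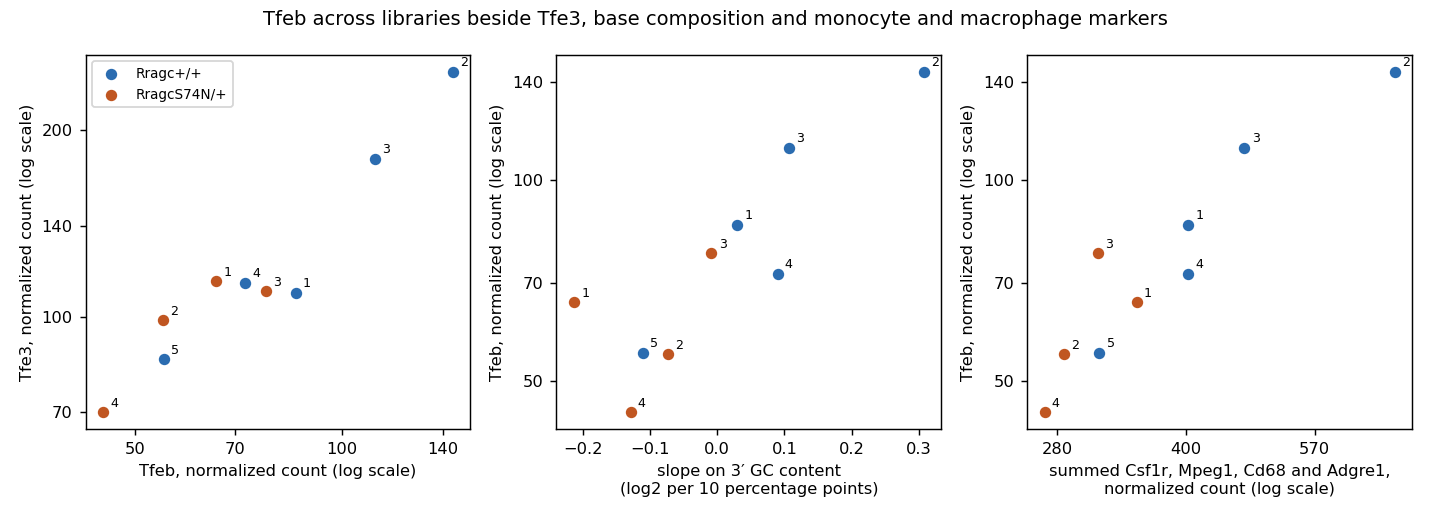
Each point is a library (blue Rragc+/+, orange RragcS74N/+, replicate numbers beside). Left, Tfe3 against Tfeb (normalized counts, log axes); middle, Tfeb against the slope on 3′ GC content (log2 per 10 percentage points); right, Tfeb against the sum of 4 monocyte and macrophage markers. Rragc+/+ replicate 2 is highest in all 3 panels, and the correlations with Tfeb are 0.960, 0.864 and 0.938.

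Partners of the members were described next, from lists chosen by function. Of 13 Rag GTPase, Ragulator and folliculin partner genes, 11 were tested. Of these, 0 had an unadjusted limma p-value under 0.05 in either direction, beside 5.81% of all genes. Their median difference was 0.09. Lamtor1, which anchors Ragulator to the lysosome, measured 651 ± 68.1 (SD, n = 5) and 528 ± 45.9 (SD, n = 4), a log2 difference of -0.30 (SE 0.15, limma adjusted p = 0.713). The differences for Lamtor3, another Ragulator subunit, and Rraga were 0.37 (SE 0.23) and 0.17 (SE 0.24).

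Of 22 genes for kinases, phosphatase subunits and anchors that set the phosphorylation and location of the factors, 19 were tested. Of these, 0 were under 0.05 in either direction, beside 5.81% of all genes, with a median of -0.03. Gsk3a, a kinase that phosphorylates TFEB, measured 57.4 ± 30.7 (SD, n = 5) and 35.3 ± 6.77 (SD, n = 4), a log2 difference of -0.54 (SE 0.33). Stub1, a ubiquitin ligase that acts on phosphorylated TFEB, differed by -0.58 (SE 0.39) and Mlst8, an mTORC1 subunit, by -0.27 (SE 0.24). Mtor itself measured 53.4 ± 6.89 (SD, n = 5) and 53.6 ± 2.95 (SD, n = 4), a difference of 0.01 (SE 0.17).

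Genes downstream of the factors were taken as a pair of lists. Of 27 lysosomal targets, 18 were listed and 17 tested, of which 1 was lower (5.88%, beside 3.81% of all genes) and 0 were higher at an unadjusted p-value under 0.05, and 0 passed the adjusted threshold. The median difference was -0.35, beside 0.02 for all genes, and 14 of 17 values were below 0, beside 46.6% of all genes. Ctsd, the aspartic protease cathepsin D, was the 1 gene, at 1469 ± 395 normalized counts (SD, n = 5) and 953 ± 110 (SD, n = 4), a log2 difference of -0.59 (SE 0.20, limma adjusted p = 0.713). Atp6v1h, a subunit of the lysosomal proton pump, differed by 0.62 (SE 0.29), Pip4p1, a lysosomal phosphatase, by -0.41 (SE 0.20) and Atp6ap1, a further pump subunit, by -0.68 (SE 0.34). With the GC trend removed the difference for Ctsd, whose 3′ GC content was 56.4%, was -0.29, and the median of the list was -0.16. The median 3′ GC content of this list was 47.0%, beside 45.6% for the autophagy and metabolic targets described next, 43.8% for the partners and 40.0% for the kinases, phosphatase subunits and anchors. The 4 listed monocyte and macrophage markers had a median difference of -0.49 in the same libraries before removal of the GC trend. After it they ran from -0.50 for Mpeg1 to -0.32 for Csf1r. Macrophages are rich in lysosomal transcripts. The part of such cells in the lysosomal values was not tested. Tfeb activity was not measured, and the part of Tfeb or Tfe3 transcripts in these values was not tested.

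Of 16 autophagy and metabolic targets, 11 were tested, of which 0 were under 0.05 in either direction, beside 5.81% of all genes. Their median was 0.03. Sqstm1, the autophagy receptor p62, measured 379 ± 62.0 (SD, n = 5) and 330 ± 36.5 (SD, n = 4), a log2 difference of -0.19 (SE 0.17). Bhlhe40, a transcriptional repressor, differed by 0.27 (SE 0.35) and Vps18, of the HOPS tethering complex, by 0.25 (SE 0.36). Rragd, a RagC paralog in both this list and that of the partners, had a difference of 0.16 (SE 0.32) at means of 9.90 ± 3.34 (SD, n = 5) and 10.9 ± 2.50 (SD, n = 4).

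**Figure D4:**
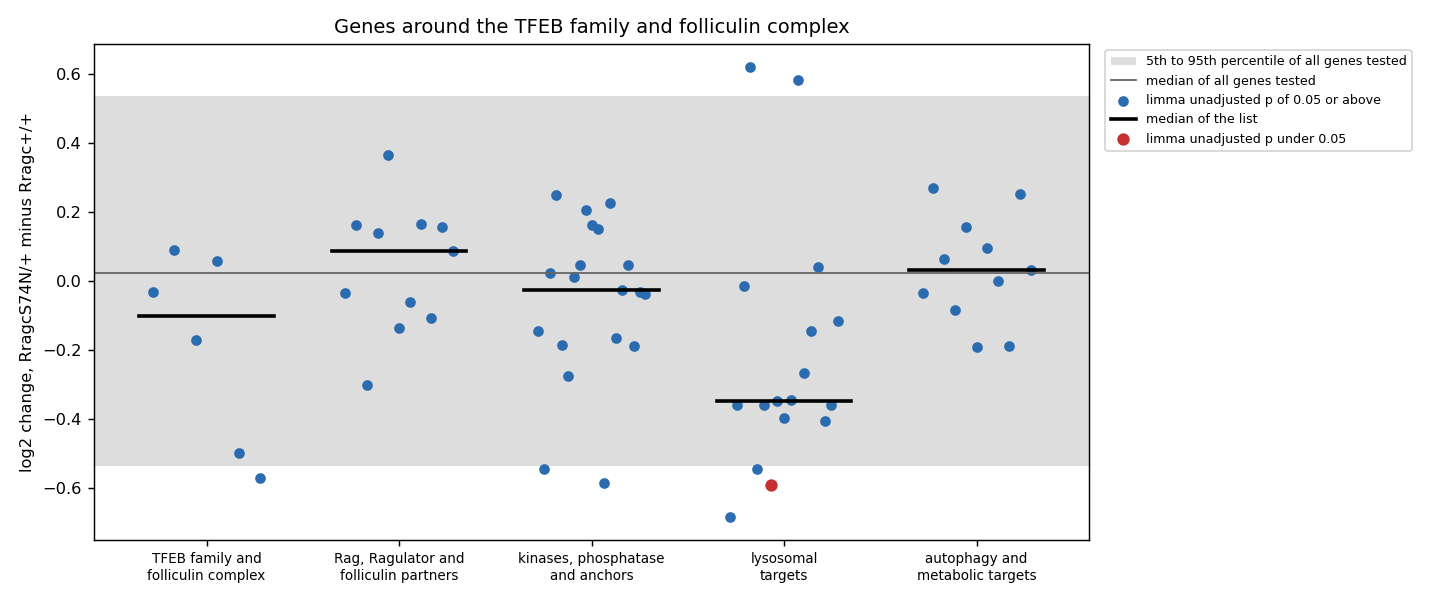
Log2 change (vertical axis, RragcS74N/+ minus Rragc+/+) of each tested gene in 5 lists (horizontal axis), with the list median as a black bar, the median of all 6673 genes as a grey line and their 5th to 95th percentiles (-0.53 to 0.54) as a band. The lysosomal targets have the lowest median, -0.35, and hold the 1 red point, Ctsd, with an unadjusted p-value under 0.05.

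The E-box was finally set beside the genotype differences. Of 5300 tested genes with a promoter sequence, 642 (12.1%) held CACGTG, among them 6 of 12 lysosomal targets, 3 of 10 partners, 2 of 14 kinases, phosphatase subunits and anchors, and 1 of 8 autophagy and metabolic targets. Ctsd, Pip4p1, Ctsa, Lamp1, Atp6v0d1 and Atp6v1a were the lysosomal genes, whose differences ran from -0.59 for Ctsd to -0.01 for Atp6v1a. Rragc, Lamtor1 and Lamtor4 were the partners. The lysosomal and autophagy lists were chosen as targets of factors that bind this E-box, so their shares are not a result of these data. Over all genes, 34 of the 642 with the E-box (5.30%) were lower in RragcS74N/+ at an unadjusted limma p-value under 0.05, beside 168 of 4658 without it (3.61%), and the median difference was 0.02 in both sets. Genes higher at the same limit made up 1.56% with the E-box and 2.08% without it. With the GC trend removed the percentages of lower genes were 2.85% and 2.44%. Of 146 genes with the longer form TCACGTGA, 7 (4.79%) were lower and 4 (2.74%) higher, with a median difference of 0.05. With the GC trend removed, 1 of 143 (0.70%) was lower and 4 (2.80%) were higher. No test of this comparison was made.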

How the data were processed

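Each library was 3′-end RNA-seq of sorted neutrophils (QuantSeq FWD with a molecular identifier module). Per the labels and the study's methods, reads were aligned by the authors with TopHat2 (version 2.0.10, with Bowtie 1.0.0) on GRCm39, and HTSeq (version 0.6.1) counted them per gene. The deposited values are a signal: gene read counts that the authors divided by a size factor for the library. Use of the molecular identifiers to collapse reads is not given in the sources used here, and if they were not used, Poisson intervals cover counting error only. All low values were whole multiples of 1 read (tolerance 0.05, checked up to 200 reads), and these reads were recovered. Every gene in the table had reads in 7 or more libraries and 8 or more reads in some library, which leaves out scarce transcripts. TopHat2 can place reads on several near-identical copies. Libraries were grouped by the genotype label, and 0 columns were left without a sample. The labels describe 9 libraries, fewer than the mice of the study's text.

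Values were analysed as log2(value + 1), which understates changes of low genes. In R 4.3.3, limma (version 3.58.1) tested the genes whose mean was at least 10, with trended moderation and genotype as the one term, with Benjamini-Hochberg adjustment over all of them (threshold 0.05). Two-sided exact permutation tests were used for single values and correlations. The recovered reads were also tested with edgeR (version 4.0.16) and with DESeq2 (version 1.42.0), which left 8 genes without an adjusted p-value. GC content came from the last 500 bases of GENCODE transcripts of GRCm38, not the authors' build, matched by symbol for 7067 of 7197 genes. All 6 members matched a RefSeq promoter. The scripts were tested on simulated counts.

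The members and all lists were chosen with earlier results of these data known. The text names the 6 members, the genes with the smallest limma p-values in each list, and the 3 genes with the highest correlation with each member among those with a mean of at least 50. Mtor, Rragd, Rragc, Mpeg1, Hdc, Prg2, Epx, Siglecf, Car2, S100a8, S100a9 and the genes holding an E-box were named after their values were seen. The alternatives changed the pseudocount, filter, scaling, moderation, library weights or test, or removed the GC trend or each library in turn. The correlations with GC slope, with markers and on values without the GC trend were added after the data were seen.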

Additional observations from a re-analysis of the deposited data

Results flagged for a closer look

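In the 20 groups of 4 or 5 values examined for a library far from the others, 3 passed the 95% critical value of Dixon's ratio of gap to range, where 1 of 20 is expected by chance. Flcn was highest in RragcS74N/+ replicate 4, at 31.4 normalized counts beside 20.3 to 21.3 in the other 3, and the gap was 0.9079 of the group's range. The share of Fnip1 in the reads of Fnip1 and Fnip2 was highest in RragcS74N/+ replicate 2, at 91.7%, with a gap of 0.8755, and Fnip2 had 11 reads in that library. Rragc+/+ replicate 2 had the lowest mean Spearman correlation with the other libraries, 0.901, with a gap of 0.7884, and was also the library highest in Tfeb, Tfe3, the slope on GC content and the monocyte and macrophage markers.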

How the results depend on the processing

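No member had an adjusted p-value under 0.05 under any of the 20 alternatives (limma, edgeR or DESeq2). The count of members with an unadjusted p-value under 0.05, 0 in the reported fit, was 1 with no filter, with TMM scaling, by edgeR and by DESeq2, 2 with array quality weights, and 0 to 2 when each library was left out. Tfeb stayed below 0 throughout, from -0.74 (without Rragc+/+ replicate 5) to -0.15 (GC trend removed), with adjusted p-values of 0.326 to 0.994, and without 1 library from -0.74 to -0.39. Tfe3 also stayed below 0, from -0.66 to -0.28 without 1 library. Signs turned for Mitf (-0.065 with the GC trend removed, -0.038 without Rragc+/+ replicate 3), Fnip1 (-0.040 with array weights, -0.091 with the GC trend removed, -0.055 without RragcS74N/+ replicate 1), Fnip2 (0.088 without RragcS74N/+ replicate 2) and Flcn (0.13 without Rragc+/+ replicate 1, and 0.021, 0.0031 and 0.025 without RragcS74N/+ replicates 1, 2 and 3). Without 1 library the ranges were -0.038 to 0.20 for Mitf, -0.21 to 0.13 for Flcn, -0.055 to 0.19 for Fnip1 and -0.36 to 0.088 for Fnip2. The correlation of Tfeb with Fnip1 turned from -0.23 to 0.77 with the GC trend removed (exact permutation p = 0.0167, not adjusted over the 15 pairs). On the same values, exact permutation gave an unadjusted p = 0.0236 for Tfeb with Tfe3 and 0.00212 for Fnip1 with Fnip2. A filter at a mean of 50 removes Mitf, Flcn and Fnip2.

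Lysosomal targets lower at an unadjusted p-value under 0.05 numbered 2 without the trend in moderation, by edgeR and by DESeq2, 5 with array weights, and 1 to 5 without 1 library (5 without Rragc+/+ replicate 5, 3 without replicate 1 of either genotype). Those higher numbered 1 with a pseudocount of 5 or no filter, 2 with array weights and 0 to 2 without 1 library, and the list's median stayed between -0.42 and -0.16. Lower partners numbered 1 by DESeq2 and 0 to 1 without 1 library, and lower kinases and anchors 0 to 2. Medians near 0 turned sign with a filter at 50 (partners -0.047, kinases 0.012, autophagy targets -0.0011) and with array weights (kinases 0.0079, autophagy targets -0.047), and without 1 library ranged from -0.036 to 0.13 for partners and -0.040 to 0.11 for autophagy targets. Over all genes, those under an unadjusted 0.05 numbered 769 with array weights, 254 with the GC trend removed, 907 without Rragc+/+ replicate 5, 641 without Rragc+/+ replicate 1, 201 without Rragc+/+ replicate 2, 224 without Rragc+/+ replicate 3 or RragcS74N/+ replicate 4 and 256 without RragcS74N/+ replicate 2. The cause of these movements was not tested. No paired analysis was possible because replicate numbers are absent from the labels. Mitf, Flcn and Fnip2 had 11 to 57 reads per library and the largest counting errors, with Poisson values of 23.2%, 18.7% and 19.4%. The spread between libraries also limits Flcn and Fnip2, whose coefficients of variation were 30.0% and 28.1%. Standard errors of these genes (0.25, 0.27 and 0.28) were near those of Tfeb (0.27) and Tfe3 (0.28).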
